A study of Mus musculus with 17 samples.

Results

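The cells described here are stromal cells of sorted mouse skin that held transcripts of *Crabp1* but none of *Pi16* or *Cthrc1*. A cell barcode was kept with at least 200 genes and at most 20% of its unique molecular identifiers (UMIs, each standing for 1 captured transcript) from mitochondrial genes. A kept cell was called a collagen-positive stromal cell when it held at least 10 UMIs of *Col1a1* and *Col1a2* together and 0 UMIs of the leukocyte gene *Ptprc* and the endothelial gene *Pecam1*. Of these, the *Crabp1* cells held at least 2 *Crabp1* UMIs and 0 UMIs of *Pi16* and *Cthrc1*. In all, 201 cells of the 8 skin libraries met the rule, which is 0.668% of the 30085 kept cells and 7.64% of the 2632 collagen-positive stromal cells. The rule reads measured values, so the levels of these genes are a description of how the cells were chosen and were not tested.

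*Crabp1* encodes cellular retinoic acid-binding protein 1, a cytosolic carrier of retinoic acid. In mouse skin it is known from fibroblasts of the upper dermis, of the hair follicle dermal papilla, which signals to the follicle epithelium through WNT and BMP modulators, and of healing wounds. *Pi16* is a known marker of adventitial and deep dermal fibroblasts, and *Cthrc1* encodes a secreted protein made by matrix-producing fibroblasts of injured tissue. The mouse *Crabp1* gene (ENSMUSG00000032291) lies on the plus strand of chromosome 9 from 54764748 to 54773110 in GRCm38, the build that is also named mm10.

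The study asked how Smad anchor for receptor activation (SARA, encoded by *Zfyve9*) acts on PDGFRb-lineage cells in skin made fibrotic by bleomycin. All mice carried PDGFRb-Cre and the Z/EG reporter, which turns cells green once Cre has acted, and *SARATg* mice also carried a *SARA* transgene that Cre switches on, whereas *SARAWT* littermates did not. Mice 8 weeks old received bleomycin (20 mg/kg) or PBS under the skin for 2 weeks, 3 times a week by the sample labels and daily by the study's methods. By those methods skin was taken 1 week after the injections ended, and GFP-positive cells of back skin were sorted. This Cre is also active in leukocytes, and the study's methods list C57Bl/6J mice and the RI-129 ES cells in which the transgene was made, without stating the background of these animals. There were 3 *SARAWT* PBS, 3 *SARAWT* bleomycin, 1 *SARATg* PBS and 1 *SARATg* bleomycin libraries, so *SARATg* values have no replicates. How many animals made a library is not given in the sources used here, and p-values below measure only the spread between these libraries.

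Library totals ranged from 3355217 to 69765525 UMIs. The smallest was *SARAWT* PBS 2, with 845 barcodes, of which 55.5% were shared with another skin library, and it held only 2 *Crabp1* cells. Barcodes were also shared for 7.38% in *SARAWT* PBS 1, 17.6% in bleomycin 1 and 22.1% in bleomycin 2, against at most 0.824% in the others, and 12 of the 201 *Crabp1* cells had a shared barcode. *SARAWT* libraries 1 and 2 of each treatment were counted on a longer gene list than the other 4 libraries, and the same split separates libraries with *Xist* from those with Y-linked transcripts, so gene list and sex cannot be told apart. Levels are given as counts per 1000000 UMIs (CPM) after the UMIs of a library's *Crabp1* cells were summed. In such sums, fewer cells of a kind and less RNA per cell cannot be told apart. For the 2 cells of *SARAWT* PBS 2, 1 UMI is 80.5 CPM, so values and overlaps that involve this library can rest on 1 UMI.

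The readings of *SARA* itself went against some labels. The transgene carries the human cDNA, and mouse *Zfyve9* is the endogenous gene. The shorter gene list has no human entry, and whether transgene reads were counted under mouse *Zfyve9* was not tested. Mouse *Zfyve9* was at 52.3, 0 and 613 CPM in the *Crabp1* cells of the libraries labelled *SARAWT* PBS 1 to 3, at 7.67, 13.5 and 11.6 CPM in those labelled *SARAWT* bleomycin, and at 237 and 149 CPM in those labelled *SARATg* PBS and bleomycin. The library labelled *SARAWT* PBS 3 was thus above both *SARATg* libraries. The same order held over all kept cells, at 620 CPM in *SARAWT* PBS 3 and 314 and 224 CPM in *SARATg* PBS and bleomycin. The other libraries had at most 25.9 CPM there. Human *ZFYVE9*, an entry of the longer gene list, was read in the 4 libraries counted on it, all labelled *SARAWT*. It was highest in the one labelled *SARAWT* PBS 1 (1373 CPM, and 838 CPM over all its kept cells). Group names below are those of the labels, and every direction between genotypes or treatments rests on them.

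The *Crabp1* and collagen levels of the cells follow from the rule. *Crabp1* was at 694, 805 and 539 CPM in the *SARAWT* PBS libraries, at 1204, 988 and 1129 CPM in the *SARAWT* bleomycin libraries, and at 237 and 1039.8 CPM in the *SARATg* PBS and bleomycin libraries. *Pdgfra*, the PDGF receptor carried by most dermal fibroblasts and not read by the rule, was found in every library, at 114 to 306 CPM. *Pdgfrb*, the gene whose promoter drives the Cre, was at 42.2 to 252 CPM. Lists of 10 markers of other lineages summed to 46.0 to 171 CPM for leukocytes, 35.1 to 87.5 CPM for keratinocytes and 23.0 to 241 CPM for endothelium. The melanocyte list reached 362 CPM in *SARATg* PBS, mostly from *Gpnmb* (344 CPM), while its defining gene *Dct* was at 0 in all 8 libraries. Other lists were higher in some libraries: Schwann cell markers reached 3341 and 1286 CPM in *SARAWT* bleomycin 2 and 3, adipocyte markers 1379.8 CPM in bleomycin 2, and mural and skeletal muscle markers 979 and 848 CPM in *SARATg* PBS. The tendon and fascia list was at 460.0 to 3218 CPM, with 222 to 3057 CPM of it from *Egr1*, which is also an immediate early gene. In this list the tendon transcription factor *Scx* was at most 11.02 CPM, and *Comp* and *Kera* were at 0 in all 8 libraries. *Tppp3* was read in every library, with 96, 2 and 26 UMIs in *SARAWT* PBS and 55, 53 and 133 in *SARAWT* bleomycin. *SARATg* PBS and bleomycin held 35 and 261. *Gdf10* had 167 UMIs in *SARAWT* PBS 1, and *Thbs4* and *Tnmd* had 102 and 67 in *SARATg* bleomycin. *Krt5* of keratinocytes was at most 2.82 CPM, *Cdh5* of endothelium at most 5.65 CPM and *Rgs5* of pericytes at most 15.5 CPM. Other pericyte genes were read: *Mcam* was at 31.7, 0 and 5.65 CPM in *SARAWT* PBS and 199, 271 and 97.0 CPM in *SARAWT* bleomycin, and *Cspg4*, which encodes NG2, at 76.0, 0 and 22.6 CPM against 115, 162 and 103 CPM. Both were without overlap, as were 55.1% of all genes tested between the 4 libraries fitted for treatment below. The main edgeR fit between treatments called 0 of 6278 genes. A fit with the gene list as a covariate has 1 residual degree of freedom and called 259 genes (4.13%). In it *Mcam* passed correction (edgeR log2 3.29, adjusted p = 0.00209) and *Cspg4* did not (1.48, adjusted p = 0.176).

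The cells made up 10.5%, 1.85% and 8.28% of the collagen-positive stromal cells in *SARAWT* PBS libraries 1 to 3, from 51, 2 and 25 cells. In *SARAWT* bleomycin libraries 1 to 3 the shares were 5.78%, 4.55% and 10.1%, from 10, 7 and 28 cells. The mean share was 6.81% ± 2.92 (SD, n = 3) with bleomycin and 6.87% ± 4.48 (SD, n = 3) with PBS, and the groups overlapped (exact permutation test, two-sided, p = 1, where the smallest possible p is 0.1). As a share of all kept cells the means were 0.405% ± 0.0733 and 0.682% ± 0.513 (exact permutation p = 0.5), and this difference was gone (0.00717 percentage points) without *SARAWT* PBS 1. The *SARATg* PBS library held 18 of these cells, 2.43% of its stromal cells (exact 95% interval 1.44 to 3.81%), and the *SARATg* bleomycin library 60, or 15.4% (12.0 to 19.4%). These 2 intervals do not meet, but each is 1 library, and intervals cover counting error only.

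**Figure D1:**
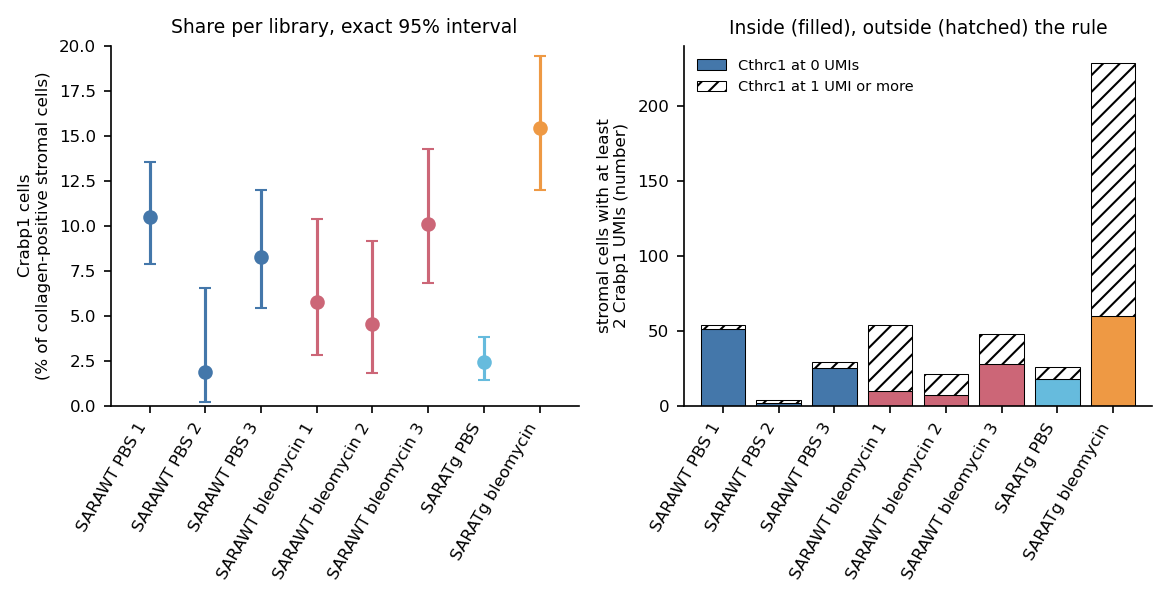
Left, *Crabp1* cells as a percentage of collagen-positive stromal cells in each library, with exact 95% binomial intervals as bars. Right, the number of stromal cells with at least 2 *Crabp1* UMIs, split into those without *Cthrc1* UMIs (filled, inside the rule) and those with 1 or more (hatched, outside it). The share is highest in *SARATg* bleomycin (15.4%), and the hatched part is small in *SARAWT* PBS and large after bleomycin.

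The *Cthrc1* limit of the rule removed many more cells after bleomycin than after PBS. Stromal cells with at least 2 *Crabp1* UMIs and at least 1 of *Cthrc1* numbered 3, 2 and 4 in the *SARAWT* PBS libraries, 44, 14 and 20 in the *SARAWT* bleomycin libraries, 8 in *SARATg* PBS and 169 in *SARATg* bleomycin. Thus the cells without *Cthrc1* were 94.4%, 50% and 86.2% of the *Crabp1*-positive stromal cells in *SARAWT* PBS, but 18.5%, 33.3% and 58.3% in *SARAWT* bleomycin, 69.2% in *SARATg* PBS and 26.2% in *SARATg* bleomycin. Near the thresholds, 44 of the 201 cells held exactly 2 *Crabp1* UMIs, 74 stromal cells stayed outside with 1, and 50 *Crabp1*-positive cells stayed outside with exactly 1 *Cthrc1* UMI. The median UMIs of the *Crabp1* cells were 11846, 6245.5 and 11670 in *SARAWT* PBS, 23599, 8979 and 14293.5 in *SARAWT* bleomycin, and 16769.5 and 18176 in *SARATg* PBS and bleomycin. Those of the cells with both *Crabp1* and *Cthrc1* were 777, 1158.5 and 32155 in *SARAWT* PBS, 34001.5, 35762 and 31950 in *SARAWT* bleomycin, and 24882 and 41058 in *SARATg* PBS and bleomycin. In 6 of the 8 libraries the cells with *Cthrc1* were thus deeper than those without, and the part of depth in this split was not tested. With every cell thinned to 1000 UMIs and the rule lowered to 1 *Crabp1* and 3 collagen UMIs, the mean share of stromal cells was 10.4% with bleomycin and 4.24% with PBS (exact permutation p = 0.1, the smallest possible), and 27.3% and 1.24% in the *SARATg* bleomycin and PBS libraries. The limits of 0 UMIs were read in the thinned counts too, so cells that lost their *Cthrc1* UMIs by thinning could enter. These shares are therefore not of the same cells as those above.

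The cells were not of 1 kind, and a dermal papilla program was high in some of them and low in others. The list of 16 dermal papilla genes includes *Corin*, a membrane protease of the papilla, the hedgehog inhibitor *Hhip*, the WNT agonist *Rspo3*, the phosphatase *Alpl* and the proteoglycan *Vcan*. Its summed level was 11550 CPM in *SARAWT* PBS 1, 3218 in PBS 2 and 5175 in PBS 3, and 502, 2016 and 842 CPM in *SARAWT* bleomycin 1 to 3. The *SARATg* libraries had 1124 CPM with PBS and 1566 CPM with bleomycin. After thinning, at least 2 genes of the list were seen in 45 of 50 cells of *SARAWT* PBS 1 and in 12 of 25 of PBS 3, but in 1 of 10, 2 of 7 and 7 of 28 cells of the *SARAWT* bleomycin libraries. In *SARATg* PBS it was 1 of 18 cells and in *SARATg* bleomycin 18 of 60. Leukocytes of the same libraries gave 0.792 to 3.42%.

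Within a library the cells stood far apart. In *SARAWT* PBS 1 most cells were high, with a median of 12154 CPM per cell for the summed list and quartiles of 6592 and 16271. In *SARAWT* PBS 3 the median was 788 but the upper quartile 13172 CPM, so that low and high cells lay side by side. The *SARATg* bleomycin cells had a median of 729 and an upper quartile of 1555 CPM, yet the highest reached 22289 CPM. In *SARATg* PBS the upper quartile was 615 CPM, with a highest cell of 20591 CPM. The highest cell of the *SARAWT* bleomycin libraries was at 4635, 6970.2 and 10400.0 CPM, so none of those 45 cells reached the median of *SARAWT* PBS 1.

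**Figure D2:**
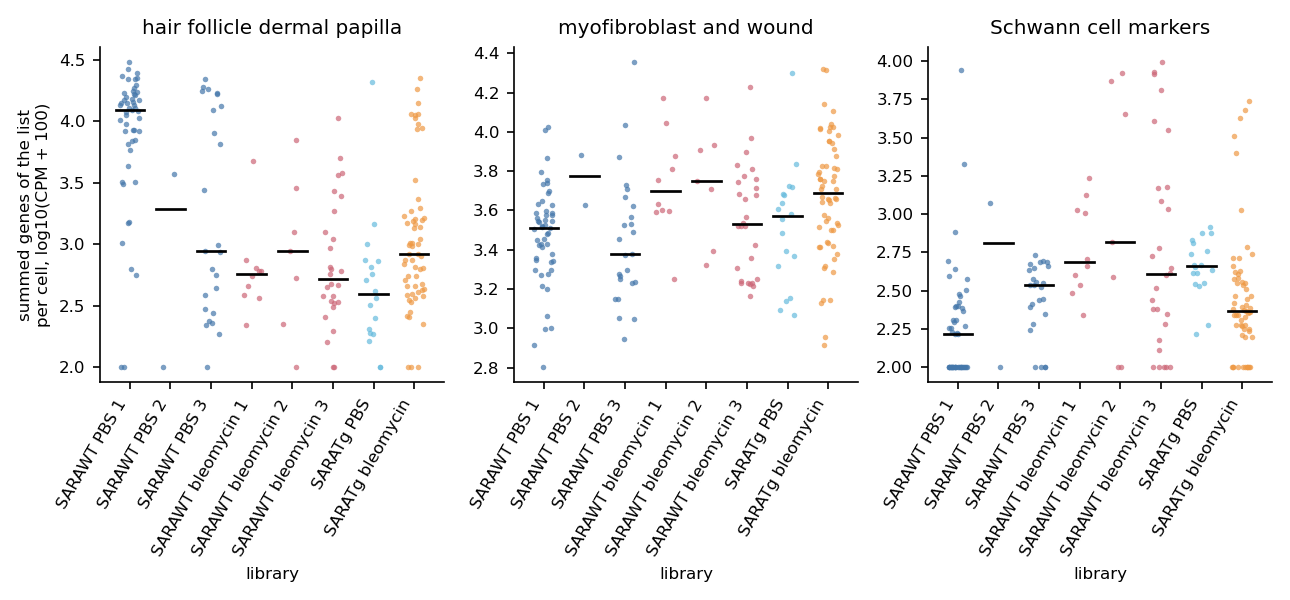
Each point is 1 *Crabp1* cell, and its height is the summed level of the dermal papilla, myofibroblast or Schwann cell list on a log10(CPM + 100) axis (black bars, medians), by library. Dermal papilla levels are high in most *SARAWT* PBS 1 cells (median 12154 CPM), split in *SARAWT* PBS 3 and mostly low elsewhere with a few high cells in *SARATg* bleomycin, while a few cells stand out for Schwann genes, the highest of them at 9748 CPM in *SARAWT* bleomycin 3 and 8676 CPM in *SARAWT* PBS 1.

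To ask how these cells differ from other collagen-positive cells of the same libraries, they were first set against *Pi16* fibroblasts, defined by the same rule with at least 2 *Pi16* UMIs and 0 of *Crabp1* and *Cthrc1*. *SARAWT* PBS 1, *SARAWT* PBS 3 and *SARATg* PBS held at least 10 cells of both kinds. No bleomycin library did, so this comparison covers PBS skin only. The *Crabp1* cells had more of dermal papilla genes and less of reticular, complement and chemokine genes. With the library as a block, edgeR's quasi-likelihood test called 124 of 6528 genes (1.9%) at a Benjamini-Hochberg adjusted p under 0.05, 43 of them higher in the *Crabp1* cells (0.659%) and 81 lower (1.24%). The kinds were set apart by *Crabp1*, *Pi16* and *Cthrc1* in the same cells, so the calls, which leave out genes of the rule, describe cells defined this way.

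*Corin* was at 824, 203 and 56.3 CPM in the *Crabp1* cells of *SARAWT* PBS 1, *SARAWT* PBS 3 and *SARATg* PBS, and at 1.58, 0 and 0 CPM in their *Pi16* fibroblasts. In each of these 3 libraries it was higher in the *Crabp1* cells (log2 difference 8.86 ± 0.52 SE, edgeR adjusted p = 0.00321). In *SARATg* PBS it was read in 11.1% of the 18 *Crabp1* cells, and the median *Crabp1* cell there had 291 CPM of the summed papilla list, against 409 CPM in the summed *Pi16* fibroblasts, so the papilla genes of that library come from few cells. *Hhip* averaged 464 against 3.87 CPM (log2 6.81 ± 0.77, edgeR adjusted p = 0.0126) and *Wif1*, a secreted WNT inhibitor, 638 against 15.2 CPM (5.82 ± 0.82, edgeR adjusted p = 0.0234). *F5*, coagulation factor V, averaged 178 against 0.142 CPM and *Ndnf*, a secreted neurotrophic factor, 298 against 6.16 CPM. The agouti gene *a*, through which the papilla sets hair pigment, averaged 398 against 6.97 CPM, and *Col23a1*, a transmembrane collagen, 360.4 against 8.73 CPM. *Gldn*, *Prlr* and *Chodl* complete the 10 genes with the largest higher levels, at log2 6.40, 5.02 and 6.54. All 10 were higher in 3 of 3 libraries.

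By list, 12 of the 16 dermal papilla genes had enough counts to be tested and all 12 were higher, 6 of them past the threshold (*Corin*, *Hhip*, *Prdm1*, *Ndnf*, *Rspo3* and *Enpp2*), with a median log2 difference of 3.91 against 0.01 over all genes tested. Of 15 WNT pathway genes 6 were called higher and 1 lower (median 1.78). Those higher were the ligand *Wnt5a* (485 against 48.9 CPM), the agonist *Rspo3*, the inhibitors *Wif1*, *Nkd1* and *Nkd2*, and the transcription factor *Tcf7* (44.3 against 4.75 CPM). The lower gene was *Sfrp4*, a WNT-binding inhibitor (0.528 against 255 CPM). Of 11 upper dermis genes 3 were called higher (*Col23a1*, *Nkd1* and *Nkd2*) and none lower.

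On the lower side, the complement gene *C3* averaged 5.97 CPM in the *Crabp1* cells and 1320 CPM in the *Pi16* fibroblasts (log2 -7.89 ± 0.40, edgeR adjusted p = 0.00255). The eosinophil chemokine *Ccl11* averaged 1.47 against 196 CPM and *Plac8* 1.06 against 167 CPM. Another 6 of the 10 named genes had no UMI in any *Crabp1* cell of the 3 libraries, so their fold is a lower bound set by 3 UMIs over the group: *Smpd3* was at least 81.9-fold lower, *Hmcn2* at least 69.2-fold, the matrix gene *Thbs4* at least 60.1-fold, *Mrgprg* at least 25.6-fold, the BMP antagonist *Chrdl1* at least 21.0-fold and the prostacyclin synthase *Ptgis* at least 18.1-fold. All 15 reticular and adventitial genes tested were lower, 5 past the threshold (*Gpx3*, *Anxa3*, *Cygb*, *Mfap5* and *Gsn*; median -3.54). All 16 chemokine, cytokine and complement genes tested were lower too, 7 past the threshold (median -2.83), among them *Il6* (23.5 against 192 CPM) and *Cxcl1* (409.7 against 1669.6 CPM). Of 15 myofibroblast genes none was called in either direction (median 0.57), and 2 passed an unadjusted p of 0.05 on each side, where 6% of all genes tested were higher and 7.8% lower at that p. Some of the lower genes were read in *Crabp1* cells of bleomycin libraries, outside this comparison. *SARAWT* bleomycin 3 and *SARATg* bleomycin held 27 and 183 UMIs of *Ptgis* and 17 and 102 of *Thbs4*. Both genes were at 0 in *SARAWT* bleomycin 1 and 2. *C3* had 7, 0 and 74 UMIs in *SARAWT* bleomycin 1 to 3 and 64 in *SARATg* bleomycin. *Chrdl1* and *Ccl11* were read in each bleomycin library. *Chrdl1* had 9, 3 and 10 UMIs in *SARAWT* bleomycin 1 to 3 and 17 in *SARATg* bleomycin, and *Ccl11* 19, 27, 16 and 7. *Mrgprg* had 0 UMIs in all 8 libraries.

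The second comparison was with *Cthrc1* stromal cells, which held at least 2 *Cthrc1* UMIs and 0 of *Crabp1* and *Pi16*, in the 6 libraries with at least 10 cells of both kinds. The summed dermal papilla list was higher in the *Crabp1* cells of 5 of these libraries, whereas in *SARAWT* bleomycin 1 it was at 502 CPM against 530 CPM in the *Cthrc1* cells. edgeR called 15 of 6359 genes (0.236%), 12 of them higher in the *Crabp1* cells (0.189%) and 3 lower (0.0472%). *Col23a1* was at 643 and 367 CPM in the *Crabp1* cells of *SARAWT* PBS 1 and 3, at 7.67 and 75.6 CPM in those of *SARAWT* bleomycin 1 and 3, and at 71.2 and 59.9 CPM in *SARATg* PBS and bleomycin. In the *Cthrc1* cells of the same libraries it lay between 0 and 46.8 CPM, and it was higher in the *Crabp1* cells of 6 of 6 libraries (log2 4.57 ± 0.32 SE, edgeR adjusted p = 0.000483). *Inhba*, the activin A subunit, averaged 309 against 22.3 CPM (3.67 ± 0.38, edgeR adjusted p = 0.00331), and the extracellular protein gene *Spon1* 253 against 14.7 CPM (4.34 ± 0.45).

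*Ifitm1* averaged 120 against 10.6 CPM, the papilla transcription factor *Trps1* 244 against 61.2 CPM (log2 1.78 ± 0.18), *Enpp2*, the enzyme that makes lysophosphatidic acid, 578 against 106 CPM, and *Ptk7* 72.4 against 13.6 CPM. Each was higher in 6 of 6 libraries. *Klf5* (46.6 against 101 CPM, log2 -1.25 ± 0.16) and *Col18a1*, a basement membrane collagen (268 against 586 CPM, -1.05 ± 0.16), were lower in 6 of 6. *Enpp2*, *Ptk7*, *Klf5* and *Col18a1* lost their calls when 1 of several libraries was left out, with edgeR adjusted p up to 0.146. All 8 dermal papilla genes tested were higher (median log2 2.31, against 0.00 over all genes), 2 of them called, and all 8 WNT genes were higher (median 1.51) with none called and 3 past an unadjusted p of 0.05 (edgeR), which 4.54% of all genes passed on the higher and 4.28% on the lower side. For the 15 myofibroblast genes the median was -0.05, and *Inhba* alone was called. The count fell to 6 without *SARAWT* PBS 3 and 7 without *SARATg* bleomycin, and rose to 23 without *SARAWT* bleomycin 1.

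**Figure D3:**
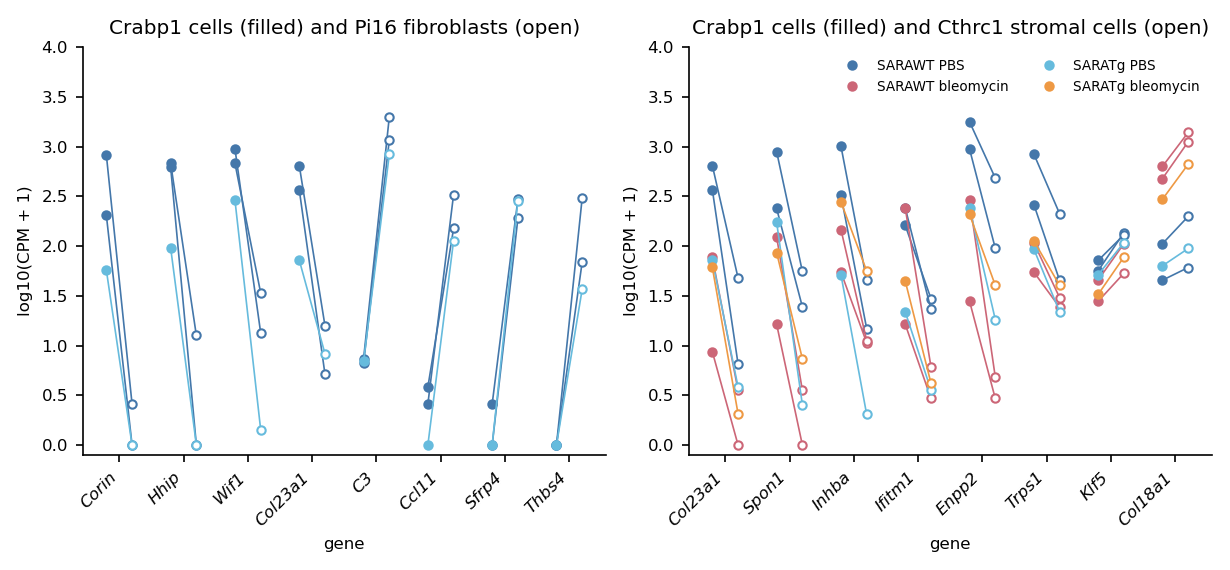
Levels on a log10(CPM + 1) axis of 8 genes in *Crabp1* cells (filled) and in *Pi16* fibroblasts (left, open, 3 libraries) or *Cthrc1* stromal cells (right, open, 6 libraries), with lines joining the 2 kinds of cell of 1 library. On the left the 4 papilla and upper dermis genes are high only in the filled points and *C3*, *Ccl11*, *Sfrp4* and *Thbs4* only in the open ones, and on the right the first 6 genes are higher and *Klf5* and *Col18a1* lower in the *Crabp1* cells of each library.

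The best replicated comparison of the design is that of bleomycin with PBS in *SARAWT* mice. *SARAWT* PBS 1 and 3 and bleomycin 1 and 3 held at least 10 *Crabp1* cells, so this fit had 2 libraries per group. Both PBS libraries of the fit had the *SARA* readings against their label given above (human *ZFYVE9* at 1373 CPM in PBS 1 and mouse *Zfyve9* at 613 CPM in PBS 3), while mouse *Zfyve9* was at 7.67 and 11.6 CPM in the fitted bleomycin libraries, so treatment and these readings cannot be told apart. Dermal papilla and WNT genes mostly had lower levels after bleomycin. Genes of the myofibroblast and wound, chemokine and nerve sheath lists mostly had higher ones, but no single gene passed correction. edgeR called 0 of 6278 genes (0%) at an adjusted p under 0.05, while 586 genes (9.33%) were higher and 570 (9.08%) lower at an unadjusted p under 0.05, and 55.1% of genes did not overlap between the groups. When the gene list was added as a covariate, which leaves 1 residual degree of freedom, edgeR called 138 genes higher (2.2%) and 121 lower (1.93%), and DESeq2 without that covariate called 141. Without *SARAWT* PBS 1 edgeR called 269 genes, without bleomycin 1 it called 101, without bleomycin 3 it called 24, and without PBS 3 it called 0. Each of these 4 fits has 1 library in 1 of its groups, which is assumed to vary like the other group, and 1 residual degree of freedom.

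*Hhip* was at 678 and 618 CPM in *SARAWT* PBS 1 and 3 and at 0 in PBS 2 and in all 3 *SARAWT* bleomycin libraries. Between the 4 fitted libraries it was at least 168-fold lower with bleomycin (edgeR adjusted p = 0.0772). *Corin* was at 824, 0 and 203 CPM in *SARAWT* PBS 1 to 3 and at 0, 54.1 and 5.82 CPM after bleomycin. *Rspo3* was at 722, 322 and 361 CPM against 3.83, 13.5 and 38.8 CPM, and *Ndnf* at 293, 1126 and 559 CPM against 0, 27.1 and 50.4 CPM. For these last 2 genes the groups did not overlap even with the 2-cell library included. *Alpl* was at 201, 0 and 64.9 CPM with PBS and at 0 in all 3 bleomycin libraries, and *Prdm1*, the transcription factor Blimp1, at 192, 80.5 and 124 CPM against 3.83, 40.6 and 19.4 CPM. *Enpp2* differed between the bleomycin libraries, at 26.8, 1096 and 287 CPM, against 1768, 885 and 940.2 CPM with PBS, so its groups overlapped in bleomycin 2.

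Over the list, 14 of 15 dermal papilla genes tested were lower with bleomycin and all 14 had an unadjusted p under 0.05, with a median log2 difference of -3.36 against 0.00 over all genes tested. With the gene list as a covariate 12 of them passed correction. The remaining gene was *Sox2*, a transcription factor of guard hair papillae, at 36.4, 0 and 25.4 CPM with PBS and 30.7, 13.5 and 25.2 CPM with bleomycin, and its fitted log2 difference was 0.0014 ± 0.59 (SE). These values move with the number of papilla-rich cells in a library, shown above, and the 2 cannot be told apart in the sums.

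Genes of the WNT and BMP pathways had the same direction. Of 16 WNT pathway genes tested 13 were lower with bleomycin, 10 with an unadjusted p under 0.05 (median log2 -2.97), and 6 passed with the gene list as a covariate. The ligand *Wnt5a* was at 797, 322 and 240.0 CPM in *SARAWT* PBS and at 15.3, 13.5 and 56.2 CPM in *SARAWT* bleomycin. *Wif1* was at 676, 241 and 949 CPM against 3.83, 40.6 and 67.9 CPM, and *Axin2*, a target that reports WNT signalling, at 47.5, 80.5 and 59.3 CPM against 0, 0 and 7.76 CPM. For all 3 genes no bleomycin library reached the lowest PBS library, but in PBS 2 these values rest on 4, 3 and 1 UMIs. Of 16 BMP and TGF-beta genes 13 were lower (median -1.35), 8 with an unadjusted p under 0.05, among them the ligand *Bmp4*, at 564, 885 and 203 CPM against 11.5, 54.1 and 95.03 CPM. *Bambi*, a decoy receptor, was at 136, 0 and 119 CPM against 11.5, 54.1 and 9.70 CPM. *Inhba* was at 1007, 1046 and 322 CPM against 53.7, 94.7 and 145 CPM, so it too was without overlap.

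**Figure D4:**
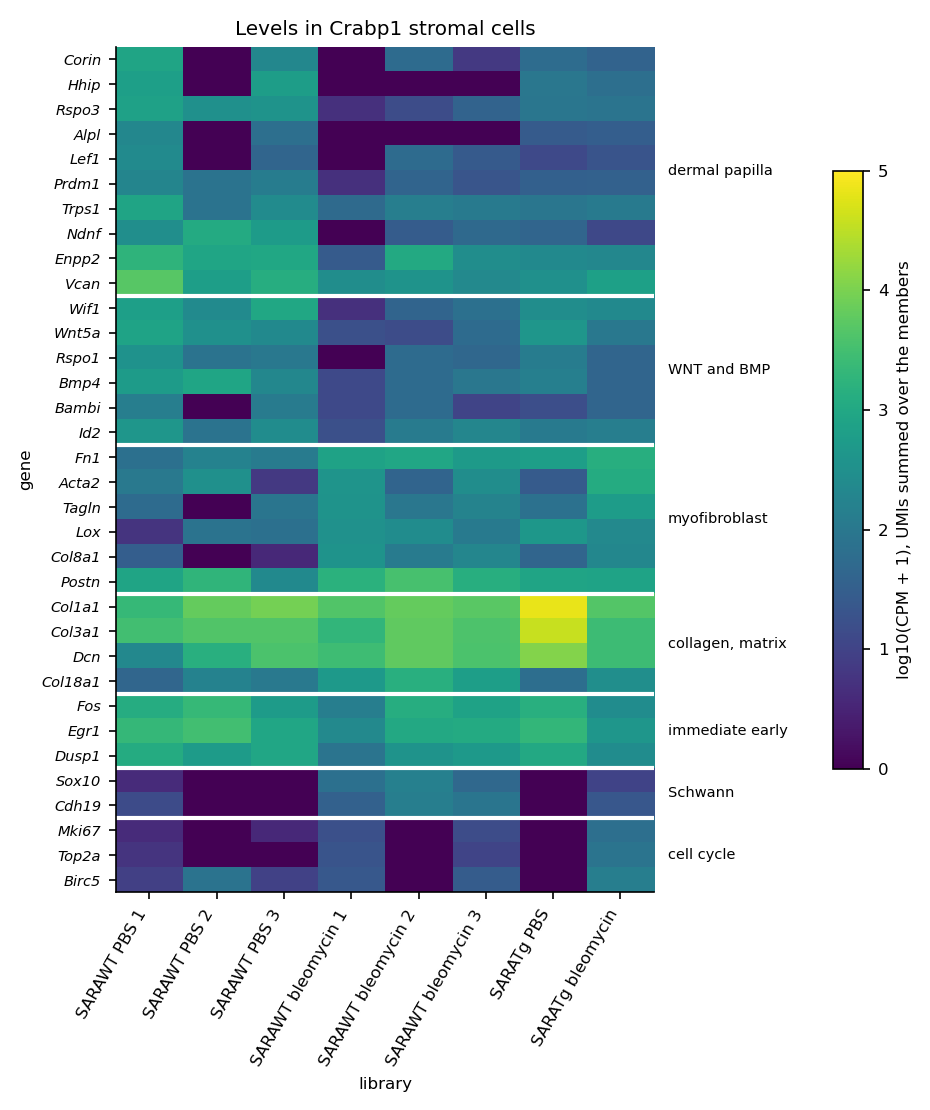
Colour gives the level of a gene in the summed *Crabp1* cells of each library, as log10(CPM + 1), with genes in rows by list and libraries in columns. Most papilla, WNT and BMP rows are brightest in the column of *SARAWT* PBS 1, while PBS 2, with 2 cells, is dark in several of them (*Hhip* at 678 and 618 CPM in libraries 1 and 3, at 0 in the *SARAWT* bleomycin columns). *Fn1* and *Col8a1* are brighter after bleomycin. The *Col1a1*, *Col3a1* and *Dcn* rows are brightest in *SARATg* PBS (*Col1a1* at 67378 CPM), but *Col18a1* is not. Cell cycle rows are brightest in *SARATg* bleomycin.

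Genes of the myofibroblast and wound list had mostly higher levels after bleomycin in *SARAWT*. Their summed level overlapped, at 3189, 7160 and 3820 CPM with PBS and 5838, 6953 and 4176 CPM with bleomycin. Of 15 myofibroblast and wound genes 10 were higher, 7 with an unadjusted p under 0.05 (median log2 1.28), and 4 passed with the gene list as a covariate (*Fn1*, *Acta2*, *Col8a1* and *Lox*). *Fn1*, which encodes fibronectin, was at 69.7, 161 and 121 CPM with PBS and at 759, 919.9 and 539 CPM with bleomycin. *Col8a1*, a short-chain collagen, was at 30.1, 0 and 2.82 CPM against 372, 122 and 196 CPM, and *Lox*, the collagen cross-linking enzyme, at 4.75, 80.5 and 70.6 CPM against 341, 271 and 114 CPM. In all 3 genes every bleomycin library lay above every PBS library. *Acta2*, the smooth muscle actin used to name myofibroblasts, overlapped, at 103, 322 and 5.65 CPM against 395, 40.6 and 279 CPM. The collagens had no common direction: of 18 collagen genes 9 were higher and 9 lower (median -0.05), and *Col3a1* was at 3084, 4425 and 4303 CPM against 1986, 5966 and 3997 CPM. The summed matrix proteases and inhibitors overlapped too, at 3092, 3218 and 9766 CPM with PBS and 3531, 6547 and 4276 CPM with bleomycin.

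Of 13 chemokine, cytokine and complement genes tested 11 were higher (median log2 2.17), 5 with an unadjusted p under 0.05. *Cxcl12*, a chemokine of fibroblasts, was at 1.58, 80.5 and 19.8 CPM with PBS and at 123, 284 and 126 CPM with bleomycin. *Ccl2*, which attracts monocytes, was at 22.2, 161 and 553 CPM against 1748, 216 and 582 CPM, with overlap. Of 12 reticular and adventitial genes 10 were higher (median 1.12), 5 with an unadjusted p under 0.05. *Pdgfa*, a ligand of the receptor encoded by *Pdgfra*, was at 42.8, 0 and 8.47 CPM against 215, 514 and 237 CPM, whereas 11 of 12 PDGF and FGF signalling genes tested were lower (median -0.90). Immediate early genes, which rise during tissue digestion, were lower in 13 of 15 (median -0.995). Their summed list did not overlap, at 13849, 13998 and 9473 CPM with PBS and 2821, 7048 and 7040 CPM with bleomycin. *Fos* by itself overlapped, at 1232, 2253 and 545 CPM with PBS and 134, 1312 and 772 CPM with bleomycin. The part of tissue handling in these results was not tested.

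By the naming rule, the 5 genes in each direction with the smallest unadjusted p were *Ifi27l2a*, *Iqgap2*, *Pclaf*, *Sncg* and *Cd151* with higher and *Hhip*, *F5*, *Prss12*, *Scube3* and *Adamts15* with lower levels after bleomycin, with edgeR adjusted p of 0.0772 or 0.0862. *Ifi27l2a*, an interferon-inducible gene, was at 26.9, 0 and 33.9 CPM in *SARAWT* PBS and at 797, 866 and 623 CPM in *SARAWT* bleomycin (log2 4.73 ± 0.48 SE). *Cd151*, a tetraspanin, was at 7.92, 0 and 14.1 CPM against 192, 122 and 132 CPM (4.09 ± 0.53), and *Pclaf*, a gene of DNA replication, at 1.58, 0 and 0 CPM against 61.3, 13.5 and 69.8 CPM. *F5* and *Prss12* were at 0 in all 3 bleomycin libraries, at least 62.0-fold and 27.2-fold lower than in PBS 1 and 3. *Scube3*, a secreted papilla factor that stimulates hair growth, was at 613, 80.5 and 215 CPM against 3.83, 0 and 9.70 CPM. All 10 genes passed correction once the gene list was a covariate. That fit reuses the 4 libraries in which the genes were picked, so it is not separate support for them.

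Schwann cell genes also had higher levels after bleomycin. All 5 of the 10 Schwann markers that could be tested had higher levels (median log2 3.19), 4 with an unadjusted p under 0.05, and the same 10 markers summed to 198, 965 and 240 CPM in *SARAWT* PBS and 548, 3341 and 1286 CPM in *SARAWT* bleomycin. *Sox10*, the transcription factor that defines the lineage, was at 3.17, 0 and 0 CPM against 69.0, 149 and 48.5 CPM. Cells with at least 3 Schwann genes numbered 2 of 51, 0 of 2 and 0 of 25 with PBS and 4 of 10, 4 of 7 and 10 of 28 with bleomycin, and 2 of 18 and 9 of 60 in *SARATg* PBS and bleomycin. With these 31 cells left out, which drops *SARAWT* bleomycin 1 from the fit, edgeR called 24 genes between treatments, an alternative chosen after seeing the data in which *SARAWT* bleomycin 3 alone stands for bleomycin and the spread comes from the PBS libraries. The part of Schwann cell RNA in the bleomycin differences was not tested beyond this. The summed perineurial and endoneurial list was also higher with bleomycin in *SARAWT*, at 242, 406 and 231 CPM against 64.9, 0 and 96.0 CPM with PBS. Its part in the differences was not tested.

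Between the genotypes no gene passed correction. Over both treatments and with the gene list as a covariate, edgeR called 0 of 6788 genes (0%) between 2 *SARATg* and 4 *SARAWT* libraries, with 51 genes (0.751%) higher and 37 (0.545%) lower at an unadjusted p under 0.05. DESeq2 called 1. Levels did not overlap between the genotypes for 6.26% of genes. Of 15 myofibroblast and wound genes 13 had higher levels in *SARATg* (median log2 1.28, against 0.00 over all genes), 3 of them with an unadjusted p under 0.05, and all 18 proteoglycan and elastic fibre genes tested were on the higher side (median 0.71) with none under that p. The summed level of the proteoglycan and elastic fibre list was high in *SARATg* PBS alone, at 25776.5 CPM, whereas *SARATg* bleomycin was at 7365 CPM, within the 7345 to 13757 CPM of the *SARAWT* libraries. The summed myofibroblast and wound list, at 5266 and 6063 CPM in *SARATg*, also lay within the *SARAWT* range of 3189 to 7160.1 CPM. The dermal papilla list had no such direction, with 6 of 15 genes higher and a median of -0.14.

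By the naming rule the fit gave *Eno3*, *Slc16a3*, *Dctpp1*, *Ndufa4l2* and *Fdps* on the higher side and *St6galnac5*, *Crym*, *Cxcl14*, *Wnt6* and *Ifnar1* on the lower, none past the threshold (edgeR adjusted p = 0.99996 for each). *Ndufa4l2*, a hypoxia-inducible mitochondrial gene that pericytes also express, was at 875 and 279 CPM in *SARATg* PBS and bleomycin and at 0 to 77.6 CPM in the 6 *SARAWT* libraries. *Slc16a3*, a lactate exporter, averaged 98.4 against 22.8 CPM and the glycolytic enzyme *Eno3* 47.8 against 2.55 CPM. *Cxcl14*, a chemokine of skin fibroblasts, averaged 7.23 against 80.4 CPM.

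*SARATg* PBS was set apart by its collagen. *Col1a1*, which the rule reads, was at 67378 CPM there and at 2249 to 9179 CPM in the other 7 libraries. *Col3a1*, which it does not read, was at 37181 CPM against 1986 to 5966 CPM, and *Dcn*, a small proteoglycan, at 11677 CPM against 215 to 6128 CPM. The reticular and adventitial list summed to 6790.3 CPM in *SARATg* PBS, the highest of the 8 libraries, and at least 2 of its genes were seen in 83.3% of the thinned cells, against 16 to 50% in the others. *Crabp1* itself was lowest in this library, at 237 CPM. In stromal cells with both *Crabp1* and *Cthrc1*, *Col1a1* was at 97247 CPM in *SARATg* PBS and 41787 CPM in *SARAWT* PBS 3, and in *Cthrc1* cells without *Crabp1* at 103201 and 44264 CPM, so the high *Col1a1* level was not particular to the *Crabp1* cells.

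The *SARATg* bleomycin library was compared with the *SARATg* PBS library as 1 library against 1, which allows no test. Of 3702 genes with at least 50 CPM in either, 1363 (36.8%) differed by more than 2-fold after 10 CPM were added on both sides. *Acta2* was at 1166 CPM with bleomycin (exact Poisson 95% interval 1112 to 1223) and at 26.7 CPM with PBS (12.2 to 50.7). The water channel gene *Aqp1* was at 664 against 2.97 CPM, the growth factor gene *Ptn* at 505 against 2.97 CPM and *Ifi27l2a* at 527 against 5.93 CPM. These 3 genes had the same order in *SARAWT*, where *Aqp1* was at 23.8, 241 and 102 CPM with PBS and at 594, 555 and 617 CPM with bleomycin, and *Ptn* at 88.7, 0 and 5.65 CPM against 230.0, 663 and 403 CPM.

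By the same ratio rule, *Dlk1*, a delta-like protein of immature mesenchyme, was at 292 CPM with bleomycin and at 0 with PBS in *SARATg* (at least 32.8-fold higher), while *SARAWT* libraries had 0 to 27.1 CPM. *Sox9* (at least 19.04-fold), *Itih5* (at least 17.4-fold), the potassium channel *Kcnn4* (at least 16.1-fold) and *Birc5*, or survivin (at least 15.0-fold), were also at 0 with PBS, and *Hmga2*, a chromatin protein of growing mesenchyme, was at 233 against 2.97 CPM. On the other side were *Igfbp2* (33.7 with bleomycin against 1749 CPM with PBS), the elastic fibre genes *Eln* (28.9 against 1367 CPM) and *Mfap4* (40.6 against 1361 CPM), *Cpz* (8.95 against 554 CPM), *Clec3b* (21.3 against 812 CPM) and *Aldh3a1* (1.38 against 189.8 CPM). *Cyp2f2* was at 0 with bleomycin and at least 90.4-fold lower. *Acta1* (4.13 against 418 CPM), *Tnnc2* (1.38 against 243 CPM) and *Tnni2* (at least 86.1-fold lower) encode proteins of skeletal muscle, and the muscle marker list summed to 848 CPM in *SARATg* PBS against 0 to 298 CPM in the other libraries. The part of muscle RNA in these differences was not tested.

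The summed level of cell cycle genes was highest in *SARATg* bleomycin, where the list of 18 came to 1062 CPM, against 53.4 CPM in *SARATg* PBS, 102 to 402 CPM in *SARAWT* PBS and 243 to 617 CPM in *SARAWT* bleomycin. *Mki67* was at 64.7 CPM, *Top2a* at 81.9 CPM and *Birc5* at 134 CPM there, and all 3 were at 0 in *SARATg* PBS. At least 2 cell cycle genes were seen in 9 of 60 thinned cells of *SARATg* bleomycin, which is 15.0%, and in 5.61% of its leukocytes. In *SARAWT* bleomycin the counts were 2 of 10, 0 of 7 and 1 of 28 cells. By cells *SARATg* bleomycin was not the highest: its median per cell was 110.4 CPM, against 591 CPM in *SARAWT* bleomycin 1, where 20% of the cells had at least 2 of the genes, and 1131 CPM in the 2 cells of *SARAWT* PBS 2.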

How the data were processed

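Single-cell RNA-Seq (10x Genomics 3′ v3) was done on sorted skin cells in 8 libraries. The deposited matrices hold unnormalized whole UMI counts of genes in called cells, produced by the authors on mm10 using Cell Ranger (3.0.2 in the submitters' notes, 4.0.0 or 3.1.0 per the file headers). Seurat 2.3.4, also in those notes, and the kidney libraries were not used here. The longer and shorter gene lists share 30406 Ensembl identifiers, 597 of them under another symbol, and only shared genes were used. The members and the 29 gene lists, of which 369 of 371 genes matched, were chosen with earlier results of these data known.

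UMIs were summed per library and kind of cell, with at least 10 cells per library. The sums were tested with edgeR 4.0.16 in R 4.3.3 (TMM factors and filterByExpr, two-sided quasi-likelihood F test, Benjamini-Hochberg adjusted p under 0.05), with the rule's genes kept in the fit but not counted as calls. DESeq2 1.42.0 was an alternative, and cell shares were tested by exact permutation of libraries (Python 3.11.15, scipy 1.17.1). Doublets were predicted with scrublet in scanpy 1.11.5 at 0.8% per 1000 cells, which marked 8 of the 201 cells, and left in. Named genes are those of the lists and, for each fit, the up to 10 called genes in each direction that changed most, with a mean of at least 10 CPM and without overlap (between classes, with 1 direction in every library), filled up to 5 by unadjusted p. The *SARATg* pair names the 10 largest ratios per direction. Other genes were named after their values were seen, and some genes of the lists and of this rule are not reported here.

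Each fit was tested on simulated data in which 200 genes differed by 2 on the log2 scale, and recovered 34.5% (bleomycin against PBS), 19.5% (*SARATg* against *SARAWT*), 85.5% (against *Pi16* fibroblasts) and 95% (against *Cthrc1* cells) of them. Alternatives covered the tool, size factors, the filter on low counts, the rule's thresholds, thinning to 1000 UMIs, shared barcodes, doublets, the gene list, the replicate block and each library left out. The smallest library held 3355217 UMIs, and its 2 *Crabp1* cells entered no gene test. Intervals cover counting error only. No sequence is shown, because the results concern levels of transcripts.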

Additional observations from a re-analysis of the deposited data

Results flagged for a closer look

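Several levels in the *Crabp1* cells ran one way with bleomycin in the *SARAWT* libraries that entered the gene fits and the other way in the *SARATg* pair. In each case the *SARATg* side is 1 library against 1, and the difference between genotypes was not tested. *Scube3* was lower with bleomycin in *SARAWT* but higher by 72.6 CPM in *SARATg* (78.5 with bleomycin against 5.93 CPM with PBS). The summed dermal papilla list was lower in every *SARAWT* bleomycin library than in every *SARAWT* PBS library, but 442 CPM higher with bleomycin in *SARATg* (1566 against 1124 CPM). The reticular and adventitial list was higher with bleomycin in *SARAWT* (2381, 5195 and 2199 CPM against 917, 805 and 1878 CPM), and in *SARATg* the difference was -4813 CPM, from 6790.3 CPM with PBS to 1978 CPM with bleomycin. The mural cell list was higher in *SARAWT* bleomycin (326, 433 and 314 CPM against 231, 0 and 124 CPM), with a *SARATg* difference of -533 CPM. *Ndufa4l2* makes up this difference, at 875 CPM in *SARATg* PBS and 279 CPM in *SARATg* bleomycin, while the pericyte genes *Cspg4* (0 and 113 CPM) and *Mcam* (2.97 and 49.6 CPM) were higher with bleomycin in *SARATg*, as in *SARAWT*. The adipocyte list was at 149.5, 1379.8 and 159 CPM with bleomycin and 55.4, 0 and 56.5 CPM with PBS in *SARAWT*, with a *SARATg* difference of -40.4 CPM. In *SARATg* the difference comes from *Car3*, a gene also expressed in muscle, at 44.5 CPM with PBS and 0 with bleomycin, whereas *Fabp4* was at 0 with PBS and 6.89 CPM with bleomycin, the same order as in *SARAWT*.

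The longer gene list holds an entry for human *ZFYVE9*, the species of the *SARA* transgene, which the comparisons did not use. It was read in the *Crabp1* cells of all 4 libraries counted on that list, although all 4 are labelled *SARAWT*: at 1373 CPM in the library labelled *SARAWT* PBS 1, 240.2 CPM in PBS 2, 64.9 CPM in bleomycin 1 and 80.7 CPM in bleomycin 2. The *SARATg* libraries were counted on the shorter list, which holds no such entry, so no level can be set beside these.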

How the results depend on the processing

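With 2 to 60 cells per library, depth and cell number limit every value here. The difference in the share of kept cells turned to 0.170 percentage points when cells were thinned and ranged from -0.490 to 0.00717 with each library left out, and that in the share of stromal cells, -0.0561, turned to 0.0888 with stricter cell filters, 3.46 with *Crabp1* at 1 UMI, 0.339 at 3 UMIs, 6.15 when thinned, 2.66 without shared barcodes and 0.508 without predicted doublets (-2.56 to 1.75 with each library left out). In the thinned setting the limits of 0 UMIs were also read after thinning, so its shares are not of the same cells. Between treatments edgeR called 0 genes. DESeq2 called 141, edgeR without a filter on low counts 671, with *Crabp1* at 1 UMI 296, at 3 UMIs 32, without shared barcodes 3, and with each library left out 0 to 269. Between genotypes the 0 calls became 1 with DESeq2, 31 without the filter and 0 to 36 with each library left out (7 without *SARATg* PBS, 36 without *SARATg* bleomycin). Against *Pi16* fibroblasts the 124 calls became 261, 891, 31 with *Crabp1* at 1 UMI and 108 to 367 (207 without *SARAWT* PBS 1, 367 without *SARATg* PBS). Against *Cthrc1* cells the 15 calls became 80, 473, 23 with *Crabp1* at 3 UMIs and 6 to 23. Chosen after seeing the data, libraries with at least 5 cells gave 83 calls between treatments, and leaving out cells with 3 or more Schwann genes gave 24 there and 48 against *Cthrc1* cells. Between treatments, the fits at 3 UMIs, without shared barcodes, with a library left out or without those cells had 1 library in 1 group, assumed to vary like the other group. The cause of these shifts was not tested. No named gene changed direction in any setting; 10 genes lost a call in at least 1 setting and 18 gained one.

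A fit with the replicate block gave 259 calls between treatments, as did the gene list as a covariate, since the 4 libraries split the same way by number and by list. The 2 usable pairs of same-numbered libraries gave r = 0.0446, which does not settle whether a number marks animals or days in common, and in this fit a number also goes with 1 gene list and with *Xist* or Y-linked reads. The block left the shares' differences as they were (exact p = 0.5 and 1). Between genotypes, the fits without *SARAWT* PBS 1 and 3 together were not run.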

Other observations

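*Crabp1* binds retinoic acid, and other genes of retinoid handling had these levels in the cells. *Cyp26b1*, which degrades retinoic acid, was at 428, 1850.4 and 350.1 CPM in *SARAWT* PBS and at 88.2, 149 and 132 CPM in *SARAWT* bleomycin, without overlap, and at 795 and 123 CPM in *SARATg* PBS and bleomycin. *Crabp2*, the related carrier, was at 173, 80.5 and 79.1 CPM against 19.2, 81.2 and 17.5 CPM, with overlap. Of the enzymes that make retinoic acid, *Aldh1a2* was at 0 in all 8 libraries, *Aldh1a3* at 0 to 36.4 CPM, and *Aldh1a1* at 122 CPM in *SARATg* PBS and at 0 to 19.4 CPM in the others. Of 8 genes of the list tested between treatments in *SARAWT*, 7 were lower with bleomycin and 1 higher (median log2 -0.45), none past edgeR's threshold and 3 with an unadjusted p under 0.05.

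Stromal cells with both *Crabp1* and *Cthrc1*, outside the rule, were most numerous after bleomycin, with 44, 14, 20 and 169 cells in the 4 bleomycin libraries. Their summed *Postn* was at 1686, 1343, 1476 and 935 CPM there, *Fn1* at 1223, 1303, 1706 and 2062 CPM, and *Corin* at most 0.555 CPM. Their dermal papilla list summed to 477, 444, 524 and 685 CPM in these 4 libraries. In *SARAWT* PBS 1 to 3 it came to 17109, 0 and 665 CPM, from only 3, 2 and 4 cells, and in *SARATg* PBS to 264 CPM. Of 12 p53 target genes tested in the *Crabp1* cells, 10 were higher with bleomycin in *SARAWT* (median log2 0.56). None passed the threshold, with or without the gene list as a covariate. The summed p53 target list overlapped, at 927, 402 and 1601 CPM in *SARAWT* PBS and 939, 1407 and 1835 CPM in *SARAWT* bleomycin. *Cdkn1a* was at 449.9, 0 and 548 CPM against 173, 325 and 572 CPM.

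*Nme2* was at 719, 402, 1986 and 852 CPM in the libraries counted on the longer gene list and at 5.93 to 17.2 CPM in the other 4, so its level moved with the gene list. The imprinted transcript *H19* was at 1055 CPM in *SARAWT* bleomycin 2, which held 7 cells, and at 0 to 14.8 CPM in the other libraries, and *Lpl* was at 1258 CPM in the same library against 15.1 to 105 CPM where it was read.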
